A study of Mus musculus with 6 samples.

Results

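The miR-671 and miR-1249 hairpins give 4 listed miRNA arms, miR-671-3p, miR-671-5p, miR-1249-3p and miR-1249-5p, out of 1251 arms in the deposited table. They were taken by name, having been put forward as arms that are high in brown fat and are encoded in exons of the genes Chpf2 and 5031439G07Rik. They were chosen by their measured difference between brown and subcutaneous fat in these same libraries, so that difference is described here without a test. Both parts of the description held only in part. The excess in brown fat was seen in the 3p arms and not in the 5p arms, and by the annotation only miR-671 lies in an exon of a coding transcript.

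The libraries came from C57BL/6J mice, an inbred strain, that were 5 to 6 weeks old when a high fat diet began. For 11 weeks 45% of its energy came from fat, 20% from protein and 35% from carbohydrate, and per the series' design text it was supplemented in the libraries used here with EPA (eicosapentaenoic acid, an omega-3 fatty acid of fish oil), at 6.75%. BF-EPA stands for 3 libraries of interscapular brown fat (numbered 3, 4 and 5) and SUB-EPA for 3 of inguinal subcutaneous fat, a white depot (numbered 1, 3 and 8). Every mouse was fasted for 4 hours and received the EPA diet, so the only contrast here is between the depots. The labels do not say whether any mouse gave both tissues or whether animals were pooled, so p-values here reflect only how these samples vary.

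A miRNA hairpin is cut out of a longer transcript by Drosha and trimmed by Dicer into a short duplex, of which usually 1 arm is kept by Argonaute and the other is degraded. The kept arm finds messenger RNAs mainly through its seed, bases 2 to 8 from its 5′ end. A hairpin in an intron can be released while the host messenger RNA is still made whole, whereas cutting a hairpin out of an exon breaks the host transcript. MiR-671 is best known for its 5p arm, which directs cleavage of the circular RNA Cdr1as in the brain. Chpf2 encodes a protein of chondroitin sulfate synthesis.

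The mature sequences that RefSeq gives on GRCm38.p6 are shown with the seed in capitals. The seeds are compared here, and the base composition is taken up again below. The 3 arms with a sequence are the following.
miR-671-3p: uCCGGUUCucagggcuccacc
miR-671-5p: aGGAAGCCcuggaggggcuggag
miR-1249-3p: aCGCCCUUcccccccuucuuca
No 2 of these seeds are alike, and none of the 3 seeds occurs in any other of the 1679 mature mouse miRNAs of that table. They therefore form no seed family with each other or with another listed miRNA. MiR-1249-3p holds an unbroken run of 7 C, a run found in 2 of the 1679 sequences (0.119%, itself included, read on the miRNA strand) and in no other tested arm with a sequence. GC content was 66.7% in miR-671-3p, 69.6% in miR-671-5p and 63.6% in miR-1249-3p, against a median of 50% and an upper quartile of 59.1% over the 229 tested arms with a sequence. All 3 are thus GC-rich.

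The hairpins themselves show where these arms sit. In the lines that follow the mature arms given by RefSeq are in capitals, so that both arms of miR-671 and the 3p arm of miR-1249 can be seen.
Mir671: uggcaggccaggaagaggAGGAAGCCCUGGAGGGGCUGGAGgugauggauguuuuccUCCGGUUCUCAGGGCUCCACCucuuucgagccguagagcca
Mir1249: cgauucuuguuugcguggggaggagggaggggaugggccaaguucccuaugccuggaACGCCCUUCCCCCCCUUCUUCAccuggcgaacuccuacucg
Mir671 lies at chr5:24592114-24592211 on the plus strand (GRCm38), inside the coding part of exon 4 of the 5 exons of Chpf2. Its last base is 150 bases before the last base of that coding part. Mir1249 lies at chr15:84951526-84951623 on the minus strand, in an intron of 2355 bases between exons 7 and 8 of the 10 exons of the coding transcript of 5031439G07Rik. It is 1506 bases from the exon before it and 751 from the one after. It falls in an exon only of a second transcript, annotated as a retained intron with no coding part, whose exon 6 spans 2710 bases across that same stretch. The label of an exon-hosted miRNA thus holds for miR-671, and for miR-1249 only through that non-coding transcript.

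**Figure D1:**
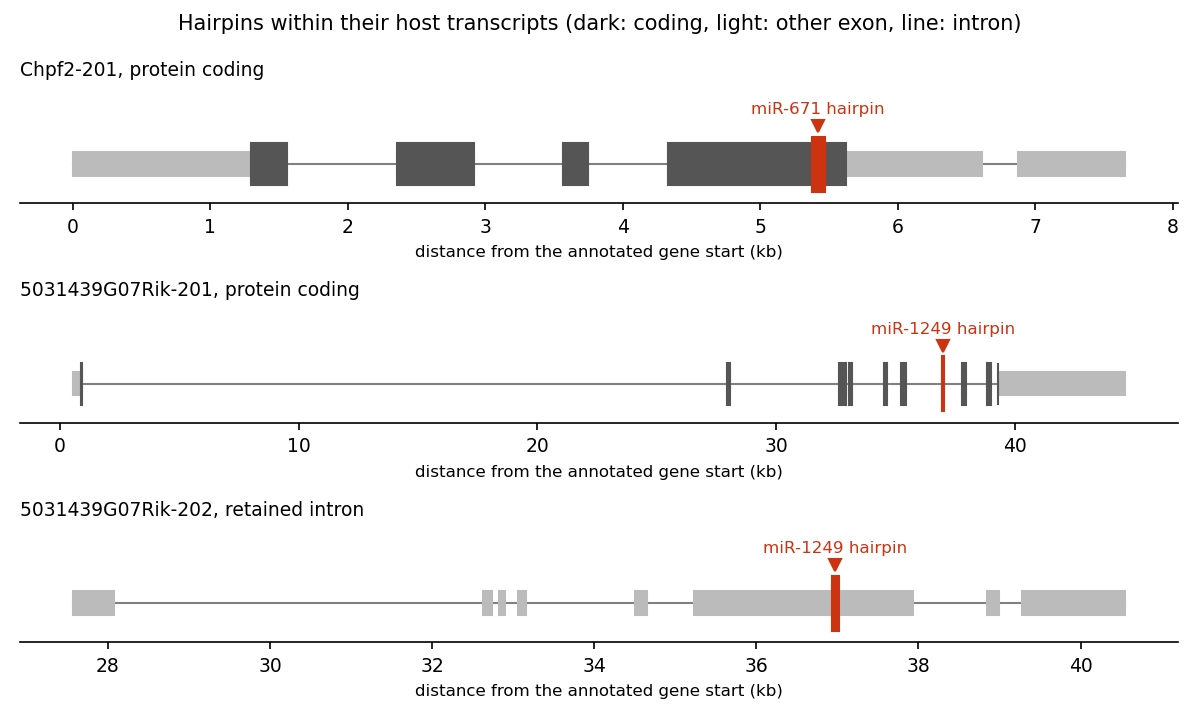
Position of the hairpins (red) in their host transcripts, with distance from the annotated gene start in kb on the x axis, coding sequence dark, other exon sequence light and introns as lines. The miR-671 hairpin sits in the coding part of exon 4 of Chpf2 (top), and the miR-1249 hairpin in an intron of the coding transcript of 5031439G07Rik (middle) and in an exon of its retained-intron transcript (bottom).

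Values are log2 abundances as deposited, with a floor of 3.32 (10 on the linear scale). The libraries were given nearly the same distribution of values, so a level mostly reflects an arm's rank within its library, and read depth is unknown from them. The number of arms above the floor was 235 to 273 per library. Markers fixed for brown fat fitted the labels: the sum of miR-378a-3p, miR-193b-3p, miR-365-3p and miR-455-3p was 19.1 to 19.7% of the library total above the floor in brown fat and 1.69 to 2.08% in subcutaneous fat. MiR-196a-5p of the white depots was at the floor in all brown libraries, and the sum of that list of 3 was 0.484 to 0.654% in brown and 3.96 to 5.18% in subcutaneous fat. Summed muscle miRNAs stood at 6.27% in BF-EPA 4 and 5.10% in SUB-EPA 3, against 0.0526 to 0.424% in the other libraries. This sum was carried by miR-133a-3p, at 17.20 (log2) in BF-EPA 4 and 16.90 in SUB-EPA 3. Of the other muscle miRNAs listed, miR-1a-3p was at the floor in all 6 libraries and miR-206-3p in all but BF-EPA 4 (7.71). Summed epithelial miRNAs stood at 1.63% in SUB-EPA 1 and at 0.0111 to 0.0171% elsewhere.

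The 3p arm of miR-671 was 6.77-fold higher in brown fat. MiR-671-3p stood at 11.29, 11.21 and 10.79 in BF-EPA 3, 4 and 5 and at 8.11, 8.68 and 8.21 in SUB-EPA 1, 3 and 8. The brown libraries were all high, the lowest of them 2.10 above the highest subcutaneous one, and the groups did not overlap. The means were 11.10 ± 0.27 (SD, n = 3) and 8.34 ± 0.31, a log2 difference of 2.76 ± 0.25 (SE of the fit). In rank, miR-671-3p was between place 66 and 76 in the brown libraries and between 124 and 142 in the subcutaneous ones. Its share of the library total above the floor was 0.0730 to 0.103% in brown fat and 0.0111 to 0.0167% in subcutaneous fat.

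The 3p arm of miR-1249 was 8.09-fold higher in brown fat. MiR-1249-3p stood at 12.07, 11.88 and 11.60 in BF-EPA 3, 4 and 5 and at 8.29, 9.76 and 8.44 in SUB-EPA 1, 3 and 8. Again no brown library overlapped a subcutaneous one, with a gap of 1.84, but SUB-EPA 3 lay well above the other subcutaneous libraries. The means were 11.85 ± 0.24 (SD, n = 3) and 8.83 ± 0.81, a log2 difference of 3.02 ± 0.41 (SE of the fit). Its rank was 52 to 60 in brown fat, 137 and 131 in SUB-EPA 1 and 8, and 96 in SUB-EPA 3. The share of the library was 0.129 to 0.178% in brown fat and 0.0126 to 0.0357% in subcutaneous fat.

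The 5p arms were at or near the floor in both tissues. MiR-671-5p was at the floor in 5 libraries and at 4.85 in SUB-EPA 3, so the single value above the floor was in subcutaneous fat. MiR-1249-5p was at the floor in all 6 libraries, and RefSeq gives no sequence for it here. Neither 5p arm passed the filter on low values, which 269 arms did, and neither was above the floor in any brown library. An arm at the floor may be present at a lower level, which these values cannot show.

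**Figure D2:**
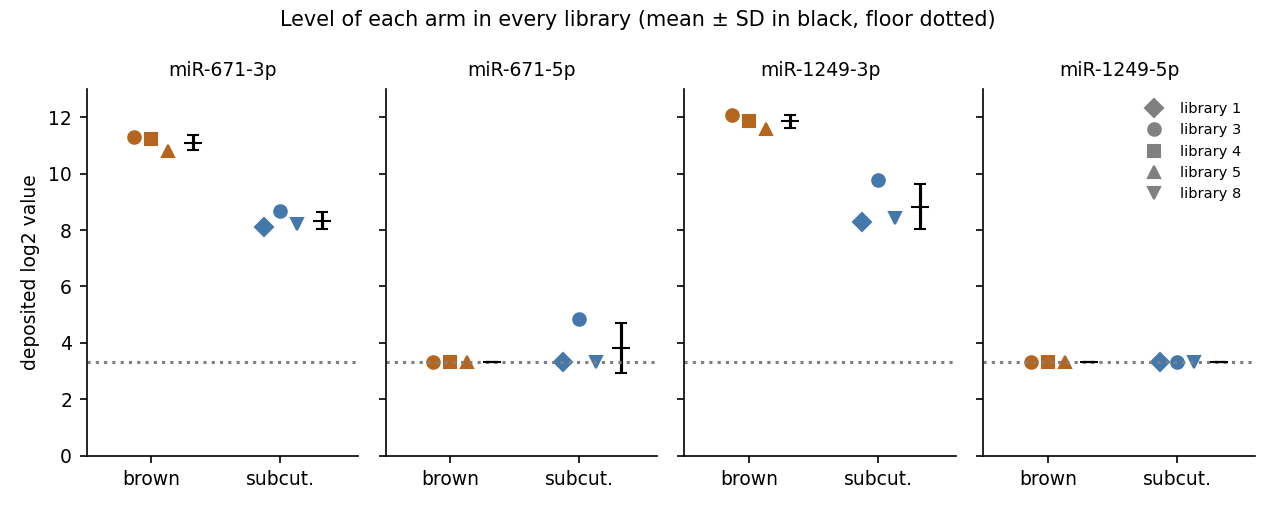
Deposited log2 value of each arm (y axis) in the brown (BF-EPA, brown symbols) and subcutaneous (SUB-EPA, blue symbols) libraries, 1 symbol per library, with the mean ± SD (n = 3) in black and the floor of 3.32 dotted. The 3p arms stand between 10.79 and 12.07 in brown fat and between 8.11 and 9.76 in subcutaneous fat, while the 5p arms lie on the floor except for miR-671-5p in SUB-EPA 3.

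A gap between the tissues in this direction was common. Both 3p arms had every brown library above every subcutaneous one, and so did 33.8% of the 269 tested arms, while 40.1% had every brown library below every subcutaneous one. Of the tested arms 33.5% were higher in brown fat and 35.7% lower (limma, adjusted p under 0.05), so either direction held for 69.1%. With 37 tested arms above miR-1249-3p and 47 above miR-671-3p in the size of the difference, neither was among the extremes. The median difference of all tested arms was -0.45, and relative to it the differences were 3.47 for miR-1249-3p and 3.21 for miR-671-3p. Marker sums of other cell types also differed between the tissues. As a percentage of the library total above the floor, the 3 red cell miRNAs summed to 8.72 to 8.73% in brown fat and 0.811 to 1.51% in subcutaneous fat, and this sum was carried by miR-486-5p. Of the other two, miR-451a went the other way, at 8.84, 8.19 and 9.18 (log2) in brown and 10.43, 9.80 and 10.43 in subcutaneous fat, and miR-144-3p was at the floor in all 6 libraries. Of 5 leukocyte miRNAs listed, the 3 found in the table summed to 1.38 to 1.89% in brown and 0.605 to 0.827% in subcutaneous fat, a sum carried by miR-150-5p. MiR-223-3p and miR-146a-5p had every brown library below every subcutaneous one. Lower in brown fat were the sums of the 5 stromal miRNAs (1.06 to 1.28% against 3.77 to 4.73%) and of the 2 endothelial arms in the table (0.134 to 0.158% against 0.412 to 0.524%). The 2 liver miRNAs summed to 0.0661 to 0.357% in brown and 0.0189 to 0.0263% in subcutaneous fat, where miR-122-5p was at the floor. Of 4 neuronal miRNAs, 3 were at the floor in all 6 libraries, among them miR-124-3p, and the list summed to 0.00659 to 0.0246% in brown and 0.00856 to 0.0175% in subcutaneous fat. The part of these cell types in the levels of miR-671-3p and miR-1249-3p was not tested. In bulk tissue, a smaller number of cells of a type and less of the miRNA per cell cannot be told apart.

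In order of level, miR-1249-3p in brown fat came first, miR-671-3p in brown fat second, and the same order followed in subcutaneous fat. In brown fat the lowest miR-1249-3p value (11.60) was above the highest miR-671-3p value (11.29). In subcutaneous fat the ranges overlapped, and the means of 8.83 and 8.34 differed by less than the SD of miR-1249-3p. Within each library miR-1249-3p was the higher of the pair, by 0.67 to 0.81 on the log2 scale in brown fat and by 0.18, 1.08 and 0.24 in SUB-EPA 1, 3 and 8. These levels are not scaled by length, and the arms have 21 and 22 bases.

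As deposited, the pair had the same order of libraries within each tissue, with only 3 libraries to order in each. In brown fat both were highest in BF-EPA 3 and lowest in BF-EPA 5, and in subcutaneous fat both were highest in SUB-EPA 3 and lowest in SUB-EPA 1. SUB-EPA 3 is also the subcutaneous library with the high sum of muscle miRNAs, a sum carried there by miR-133a-3p. It has the most arms above the floor (273) and the only value of miR-671-5p above the floor. Without SUB-EPA 3 the difference was 3.48 for miR-1249-3p and 2.93 for miR-671-3p. Without both libraries that were high in muscle miRNAs, BF-EPA 4 and SUB-EPA 3, the difference was 3.47 for miR-1249-3p and 2.88 for miR-671-3p. SUB-EPA 3 held the highest subcutaneous value of both arms, so leaving it out could only raise the differences. Without BF-EPA 4 alone they were 3.00 for miR-1249-3p and 2.70 for miR-671-3p. The part of muscle in these levels was not tested.

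The GC content of the arms moved with the contrast. In the subcutaneous libraries the log2 level fell by 0.79 to 0.83 for every 10 points of GC content, and in the brown libraries by 0.06 to 0.21. Over the 229 tested arms with a sequence the tissue difference rose with GC content (Pearson's r = 0.52, Spearman's rho = 0.50, across arms that share the same 6 libraries and are not independent). Among them 12 arms had a higher GC content than miR-671-3p and 22 a higher one than miR-1249-3p. With the GC trend of each library removed, the difference of miR-671-3p was 1.62 (3.07-fold) in place of 2.76, and that of miR-1249-3p was 2.08 (4.24-fold) in place of 3.02. After that step the lowest brown value of miR-671-3p was 10.88 and the highest subcutaneous value 9.96, and for miR-1249-3p these were 11.67 and 10.79. The arms were chosen on this contrast, and how many of all tested arms kept such a gap was not counted. In that setting 29.7% of the 269 tested arms were higher in brown fat (limma, adjusted p under 0.05). What sets the GC trend of a library was not tested.

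**Figure D3:**
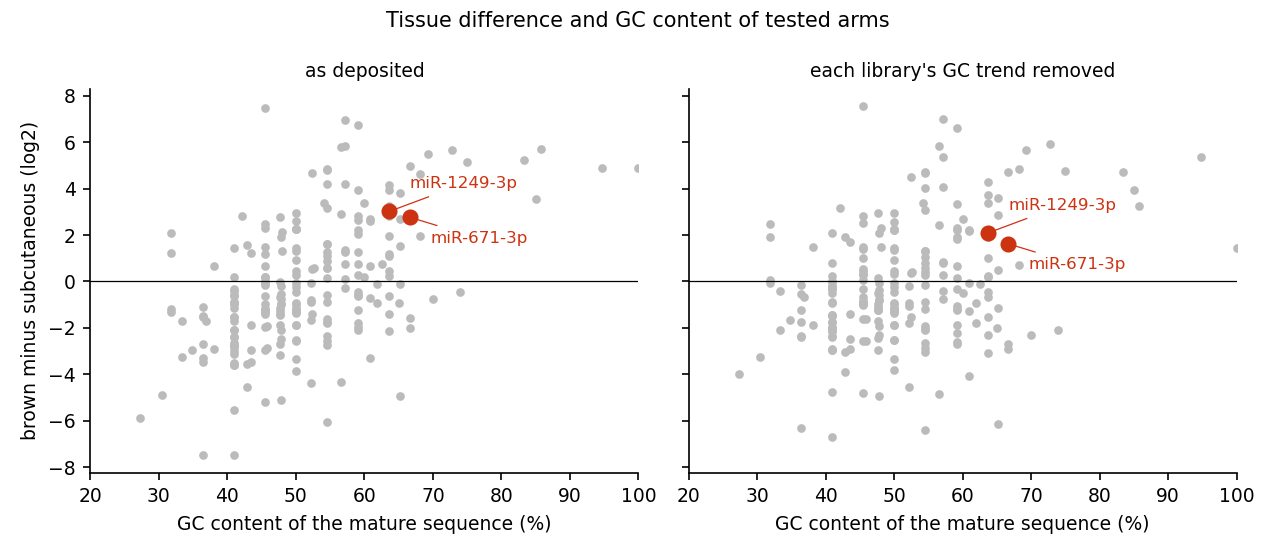
Brown minus subcutaneous difference (log2, y axis) against GC content of the mature sequence (percent, x axis) for the 229 tested arms with a sequence, as deposited (left) and with the GC trend of each library removed (right). MiR-671-3p and miR-1249-3p (red) lie at the GC-rich end, and their differences go from 2.76 and 3.02 to 1.62 and 2.08.

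MiR-671-3p exceeded miR-671-5p in 6 of 6 libraries, by 3.83 to 7.96 on the log2 scale with a mean of 6.14 ± 1.84 (SD, n = 6). MiR-1249-3p exceeded miR-1249-5p in 6 of 6 libraries, by 4.97 to 8.75 with a mean of 7.02 ± 1.74 (SD, n = 6). MiR-1249-5p was at the floor in 6 of 6 libraries and miR-671-5p in 5 of 6, so these values mostly measure how far the 3p arm stood above the floor. The floor fixes their direction, and they are given as a description with no test.

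By tissue the 3p excess of miR-671 was 7.96, 7.89 and 7.46 in BF-EPA 3, 4 and 5 and 4.79, 3.83 and 4.88 in SUB-EPA 1, 3 and 8. SUB-EPA 3 had the smallest excess, with miR-671-5p above the floor. The 3p excess of miR-1249 was 8.75, 8.56 and 8.28 in the brown libraries and 4.97, 6.44 and 5.12 in the subcutaneous ones. These tissue values carry the contrast by which the arms were chosen and have no test.

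Hairpins that favour the 3p arm are common. Of 154 other hairpins with both arms listed and 1 or more arm tested, 74 had the higher mean in the 3p arm and 80 in the 5p arm, and in 47 (30.5%) the 3p arm was higher in all 6 libraries. The 5p arm was at the floor in all 6 libraries in 39 of the 154, as for miR-1249. The 3p excess was larger than that of miR-671 in 18 of them and larger than that of miR-1249 in 14. The median excess of hairpins that favoured the 3p arm was 3.96, so both hairpins lay in the upper part of that group.

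**Figure D4:**
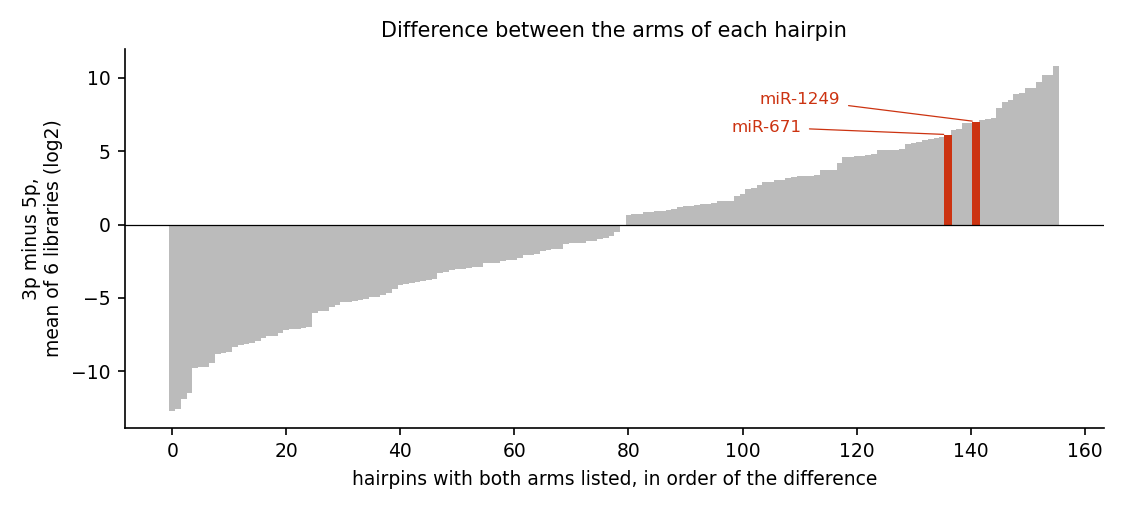
Mean 3p minus 5p difference over 6 libraries (log2, y axis) for each hairpin with both arms listed and 1 or more arm tested, in order of the difference (x axis), with miR-671 and miR-1249 in red. MiR-671 stands at 6.14 and miR-1249 at 7.02, in the upper part of the hairpins that favour the 3p arm.

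The arms whose profile was most like that of the members were found by the root-mean-square distance between log2 profiles over the 6 libraries, each centred on its own mean. A small distance calls for a like gap between the tissues and a like pattern over the libraries. Such likeness in the arms named here therefore follows from how they were picked. Nearest to miR-671-3p were miR-744-5p, hosted in an intron of Map2k4, at a distance of 0.18, then miR-667-3p (0.20) and miR-3061-3p (0.30). MiR-744-5p stood at 13.63, 13.63 and 13.56 in BF-EPA 3, 4 and 5 and at 10.34, 11.21 and 10.79 in SUB-EPA 1, 3 and 8. It was thus much more abundant than miR-671-3p, with a like gap between the tissues. MiR-667-3p and miR-3061-3p were at the floor in all 3 subcutaneous libraries and stood at 6.03 ± 0.26 and 6.29 ± 0.26 (SD, n = 3) in brown fat, so their gap is set by the floor. Nearest to miR-1249-3p were miR-423-5p, hosted in an intron of Nsrp1, at 0.25, then miR-744-5p (0.30) and miR-671-3p (0.32). MiR-423-5p stood at 14.88, 14.11 and 14.05 in the brown libraries and at 10.65, 12.34 and 11.38 in the subcutaneous ones, and like miR-1249-3p it was highest in SUB-EPA 3 among the latter. The GC content was 63.6% in miR-744-5p, 65.2% in miR-667-3p, 50% in miR-3061-3p and 56.5% in miR-423-5p. From the side of miR-671-3p, miR-1249-3p was the arm in place 7.

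Lying in an exon did not go with an excess in brown fat as a rule. Apart from the members, 79 tested arms have a hairpin that overlaps an exon of a longer gene on the same strand. In brown fat 19 of these were higher (24.1%), 32 lower (40.5%) and 28 not past the threshold (limma, adjusted p under 0.05). Some, miR-199a-5p and miR-129-5p among them, have 2 hairpins and were counted here if either overlaps an exon. Such an arm can also come from its other locus, and the counts were not repeated without such arms. Of 105 arms in introns, 32 (30.5%) were higher and 38 (36.2%) lower. Of 75 arms in no gene, 31 (41.3%) were higher and 25 (33.3%) lower, beside 33.5% and 35.7% of all tested arms. In these counts, an arm at the floor throughout a tissue passed the filter on low values through the other tissue. Such arms, miR-129-5p and miR-196b-5p among them, could hardly have come out the other way. The counts were not repeated without them. The median difference was -0.91 for exons, -0.31 for introns and -0.23 for no gene, beside -0.45 over all. Most of the exon-hosted arms, 62 of 79, lie in an exon of a transcript with no coding part, and there 13 were higher and 28 lower. MiR-1249 falls in this broad class only through a retained-intron transcript of a coding gene, so the class is no close match for its position.

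The largest differences among the exon-hosted arms went in both directions. Higher in brown fat were miR-129-5p (10.27 ± 0.45, SD, n = 3, with every subcutaneous library at the floor), miR-5130 in an untranslated region of Kctd12 (8.86 ± 0.20 and 3.63 ± 0.54) and miR-1199-5p in the coding part of 2210011C24Rik (8.78 ± 0.13 and 3.63 ± 0.54). Lower were miR-223-3p, abundant in myeloid cells (3.85 ± 0.92 in brown and 9.36 ± 0.53 in subcutaneous fat), miR-196b-5p in Hoxa9 (at the floor in brown fat and 8.52 ± 0.42) and miR-199a-5p in Dnm3os (5.93 ± 0.72 and 10.31 ± 0.09), abundant in stromal cells. These 6 were picked as the calls with the largest differences, so being past a limma adjusted p of 0.05 was fixed by that choice. They stayed past it in every other setting in which they were tested. Those settings reuse the same libraries and give no independent support. MiR-5130 and miR-1199-5p were at the floor in 2 subcutaneous libraries, and miR-223-3p in 2 brown libraries. MiR-129-5p was at the floor in every subcutaneous library and miR-196b-5p in every brown library. For all of these arms the size of the difference is partly set by the floor.

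Among these, the arms most like miR-671 in position were the 4 others in a coding exon, a set singled out after the values were seen. MiR-1199-5p had a difference of 5.14 ± 0.39 (SE; limma adjusted p = 7e-05). MiR-1306-5p, in the coding part of Dgcr8, the partner of Drosha, stood at 8.36, 8.11 and 7.85 in BF-EPA 3, 4 and 5 and at 6.19 in SUB-EPA 3, with SUB-EPA 1 and 8 at the floor. Its difference was 3.83 ± 0.83 (limma adjusted p = 0.0061), and 4.79 without SUB-EPA 3. MiR-3057-5p, in Apba3, had a difference of 2.25 ± 1.02 (limma adjusted p = 0.089), with BF-EPA 3 and all subcutaneous libraries at the floor, and its value turned on single brown libraries. It was 3.37 without BF-EPA 3 (limma adjusted p = 0.0025), 1.48 without BF-EPA 4 (limma adjusted p = 0.21) and 1.89 without BF-EPA 5 (limma adjusted p = 0.22). MiR-700-5p, in Rcan3, had a difference of 1.26 ± 0.96 (limma adjusted p = 0.27), and its size turned on single subcutaneous libraries. It was 0.14, or 1.10-fold, without SUB-EPA 3 (limma adjusted p = 0.73), and 3.99-fold without SUB-EPA 1 (limma adjusted p = 0.12). Thus 2 of 4 (50%) were higher in brown fat and 0 lower, with a median difference of 3.04. Over all tested arms 33.5% were higher and 35.7% lower, and with 4 arms the count is near those shares. MiR-3057-5p was at the floor in all subcutaneous libraries, and miR-1199-5p and miR-1306-5p in 2 of them. These arms passed the filter on low values through brown fat, so they could hardly have come out lower. Whether lying in a coding exon goes with an excess in brown fat was not tested. The GC content was 75% in miR-1199-5p, 65.2% in miR-1306-5p, 50% in miR-3057-5p and 54.5% in miR-700-5p. With the GC trend removed their differences were 4.76, 3.60, 2.22 and 1.05 in that order (limma adjusted p = 0.0030, 0.029, 0.093 and 0.39), with values at the floor not moved.

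**Figure D5:**
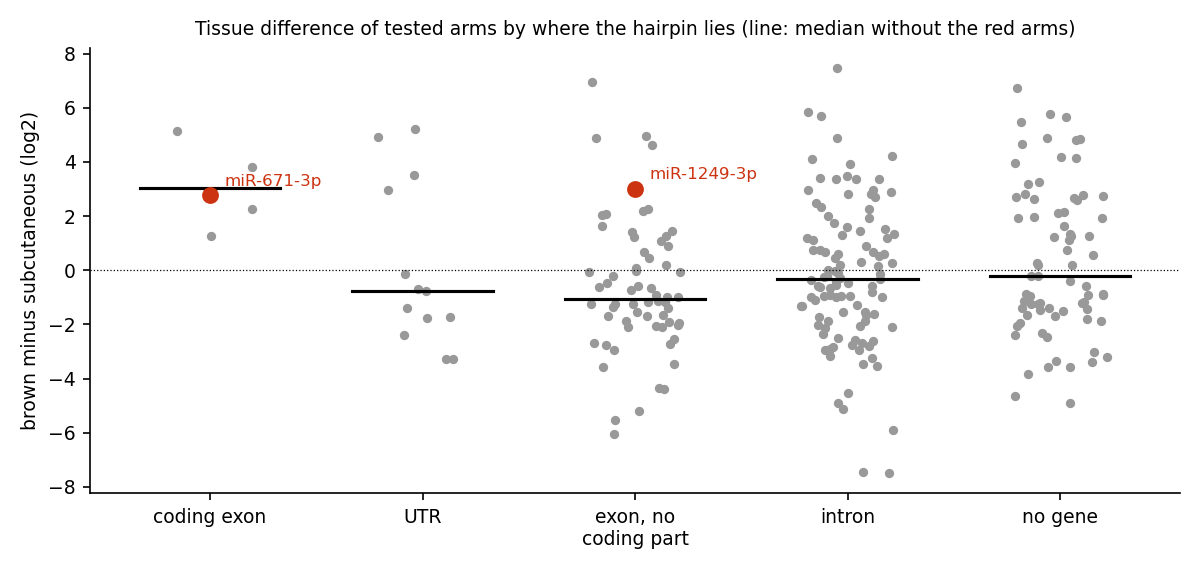
Brown minus subcutaneous difference (log2, y axis) of each tested arm (points) by where its hairpin lies in the annotation (x axis), with the median of each class without miR-671-3p and miR-1249-3p as a line. MiR-671-3p (2.76) stands among 4 other coding-exon arms with a median of 3.04, and miR-1249-3p (3.02) stands above most of the 62 others in exons of transcripts with no coding part, whose median is -1.06.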

How the data were processed

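Small RNA of 6 libraries was sequenced. Per the series' design text, the authors mapped reads to mouse build mm10, scaled counts of each unique read to total usable reads and added 40 counts, with around 13.8 M mapped reads for each sample. How reads were trimmed, aligned and annotated is not given in the sources used here. Values were deposited on a log2 scale with a floor at 10 linear units, which lies below the 40 counts said to be added. The step that gave this floor is not named in the sources used here. At 64.0% of the top 100 ranks the 6 libraries shared the same value (within 1e-06), so depth is unknown and no counting interval is given.

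Tissues were compared with limma 3.58.1 (R 4.3.3) with its trend option and a threshold of 0.05 after Benjamini-Hochberg adjustment, over the 269 arms whose mean above the floor was at least 0.001% of the mean library total. An exact sign-flip test was planned for the arms of a hairpin; with the 5p arms at the floor it is void, and no p is given. Hairpins were matched by name to GENCODE M21 (GRCm38, also called mm10). An arm with several hairpins was placed in an exon if any of them overlapped one. RefSeq sequences (GRCm38.p6) matched 229 tested arms (85.1%) and 3 of the 4 members. The GC trend was a straight line per library over arms above the floor; values at the floor were not moved. The fit was tested on simulated data. Python 3.11.15 was used otherwise.

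The members and lists were chosen with earlier results of these data known. Named beside the members are the 3 arms nearest in profile to each 3p arm and the 3 exon-hosted calls with the largest difference in each direction. Alternatives changed the pseudocount, filter, scaling or variance model, left out libraries or removed the GC trend; leaving out the 2 libraries highest in muscle markers was added after seeing the data.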

Additional observations from a re-analysis of the deposited data

How the results depend on the processing

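Both 3p arms were chosen by their difference in these libraries, with every brown value above every subcutaneous one. Leaving out a library could thus not reverse the direction, and the other alternatives reuse the same libraries. Under all of them both arms stayed higher in brown fat, which is no independent support. When 1 library was left out, the differences were between 2.65 and 2.93 for miR-671-3p and between 2.75 and 3.48 for miR-1249-3p. The GC trend moved them most, to 1.62 for miR-671-3p and 2.08 for miR-1249-3p, and median-of-ratios scaling gave 3.18 for miR-671-3p and 3.43 for miR-1249-3p while it moved the median of all tested arms from -0.45 to -0.09. The difference of miR-671-5p, -0.51, rests on SUB-EPA 3 and was 0 without it. The arm difference, whose direction the floor fixes, has no test. Without 1 library its mean was 5.77 to 6.60 for miR-671 and 6.67 to 7.43 for miR-1249. With 4 libraries the means were 6.26 and 6.73 without both numbered 3 and 6.28 and 6.78 without those highest in muscle miRNAs. Adding 40 to the linear values lowered the arm difference to 4.09 for miR-671 and 4.77 for miR-1249. Of the 79 exon-hosted arms, 17 to 20 were called higher and 31 to 34 lower without 1 library. Beside them, 75 to 91 of all 269 tested arms (27.9 to 33.8%) were higher and 90 to 97 lower. With the stricter filter, which tests fewer arms, 8 of 40 exon-hosted arms (20%) were higher and 23 lower. Of all 157 arms tested with that filter, 58 (36.9%) were higher and 69 lower. GC removal was not run for miR-1249-5p or the arm difference of miR-1249, since no sequence of the 5p arm was used here. No paired analysis was possible because the groups share only the number 3. Low values are limited by the floor, and depth is unknown.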
